A study of Saccharomyces cerevisiae with 6 samples.

Results

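The genes described here encode the RNA polymerase II machinery of the budding yeast Saccharomyces cerevisiae: the 12 subunits of the polymerase, 8 general transcription factor subunits and the 25 subunits of Mediator with its kinase module. They were chosen by identity, as 45 named rows among the 7126 gene rows of the count table, and all 45 were counted and passed the filter on low counts. Poly(A)-selected RNA was sequenced from 3 R256C cultures, whose actin has cysteine in place of an arginine, and from 3 WT cultures; the labels give S288C as the background of both and call the cultures biological replicates. All were grown without treatment in YPD, a rich medium with glucose, at 30 °C and collected in early exponential growth at an OD660 of 0.9. How the substitution was introduced, and how many isolates of each strain were used, is not given in the sources used here, so other differences between the strains and the substitution cannot be told apart. The series places the substitution in the context of transcription, and the comparison asks here whether mRNAs of the core transcription machinery differ between R256C and WT.

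RNA polymerase II makes all mRNA. Its largest subunit carries a repetitive C-terminal domain that is phosphorylated during the transcription cycle, and several of its small subunits are also parts of polymerases I and III. The general factors place the polymerase at the promoter: TBP binds the core promoter, TFIIA stabilises it, TFIIB joins it to the polymerase, and TFIIF and TFIIE act in start site selection and promoter opening. Mediator relays signals of gene-specific activators to the polymerase through its head, middle and tail modules, and a separable kinase module with CDK8 and cyclin C restrains or modulates it.

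In R256C, 4 of the 45 genes rose and 13 fell, which is 37.8%. The test was the quasi-likelihood test of edgeR, and a gene passed with a Benjamini-Hochberg adjusted p, taken over all genes tested, below 0.05. Over all 6337 genes tested, 42.7% were called, 21.2% higher and 21.4% lower. The share of called genes in the machinery was therefore near the background. The median log2 fold change was -0.06 for the 45 genes and -0.01 for all genes. For the 5805 tested genes with an annotated coding sequence, which all 45 have, it was -0.03. A change of at least 1.5-fold that passed the test was seen in 6 of the 45 genes (13.3%; background 22.9%), and none of the 45 differed by 2-fold or more (background 9.23%). R256C and WT libraries did not overlap in 22 of the 45 genes (48.9%; background 54.9%). In 8 of these every R256C library was above every WT library (background 27.7%), and in 14 every R256C library was below (background 27.3%). Counts are shares of each library, so a change in the amount of a transcript and a change in total mRNA cannot be told apart. Each library pools the cells of a culture, so fewer cells with a transcript and less of it per cell cannot be told apart either. When libraries were scaled by their totals alone, 6 of the 45 genes rose and 6 fell, and over all genes 1639 rose and 886 fell against 1345 and 1358 with TMM scaling. That scaling put the median log2 fold change of the 45 genes at 0.04 and that of all genes at 0.09. The side of zero on which the median of the 45 genes or of all genes lay thus depended on the scaling. The 45 genes had a lower median than all genes both times.

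**Figure D1:**
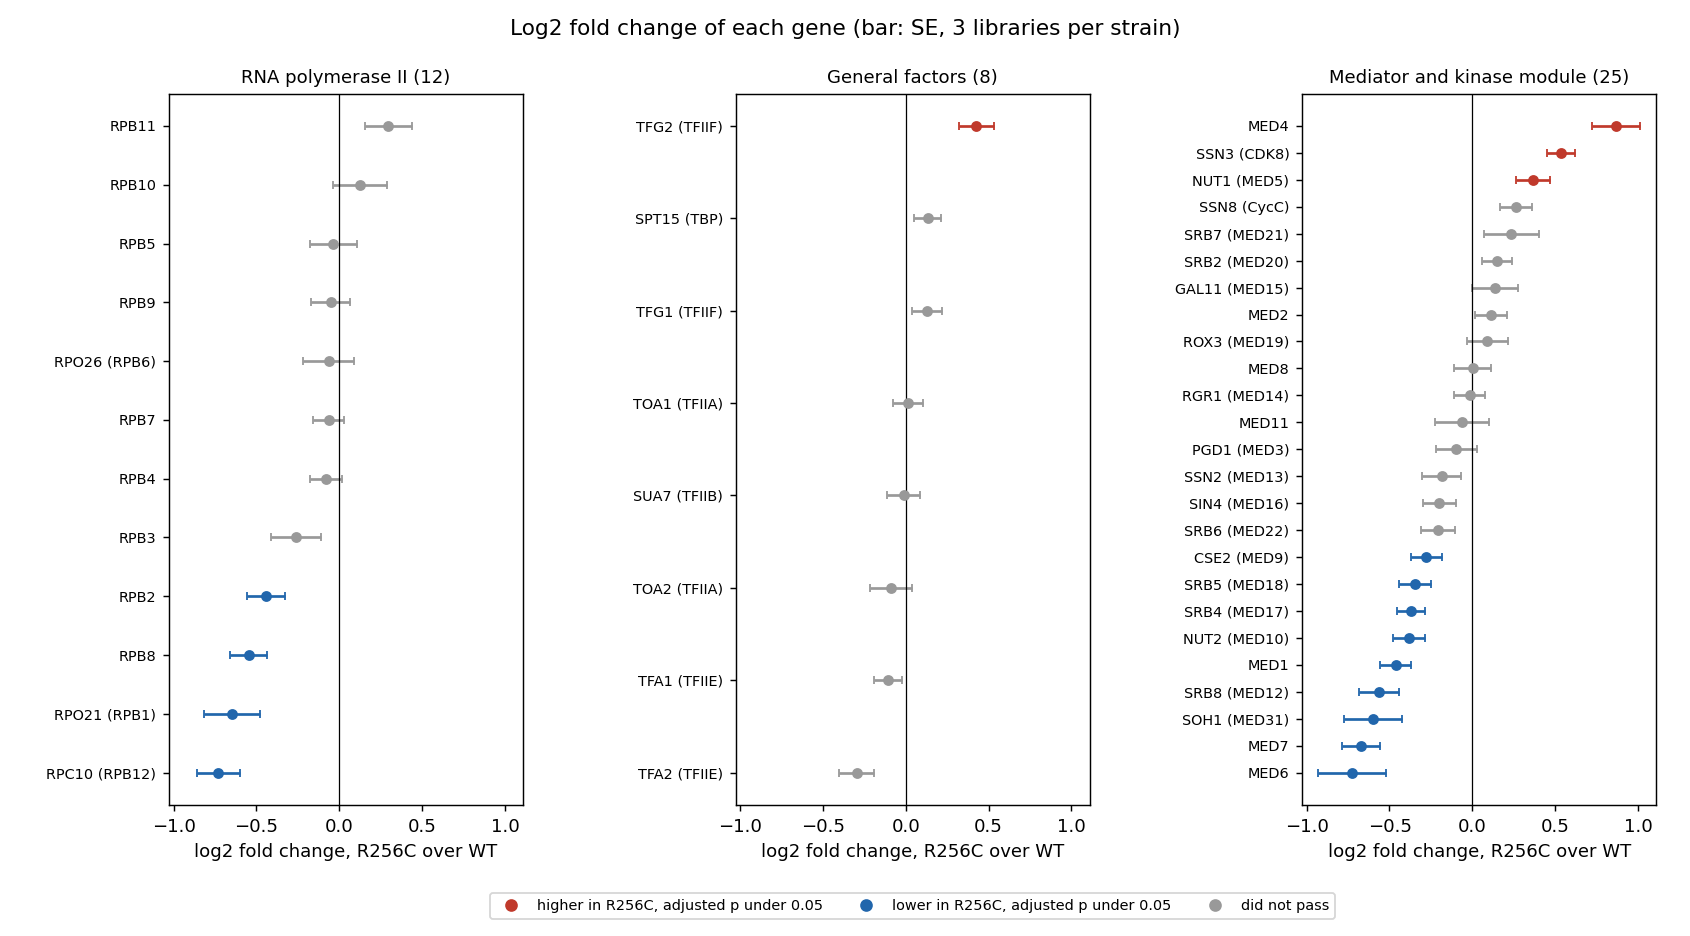
Log2 fold change of each of the 45 genes, R256C over WT, with bars for the SE (3 libraries per strain), in 3 panels for RNA polymerase II, the general factors and Mediator; colours mark genes that passed the test. The polymerase panel has 4 coloured genes, all lower, the general factors lie closest to zero, and Mediator spans -0.72 (MED6) to 0.87 (MED4).

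WT replicate 2 stood apart from the other WT libraries, in these genes and over all genes. Over all genes the chi-square per degree of freedom between libraries was 7.03 to 14.04 within R256C. Within WT it was 152.4 for replicates 1 and 2 and 78.55 for replicates 2 and 3, against 14.46 for replicates 1 and 3. Between the strains it was 119 to 237. This measure grows with read depth, and WT replicate 2 had the most reads. It therefore cannot show whether WT replicates 1 and 2 differed by as much as some pairs of R256C and WT libraries. The SD over the 45 genes of a library's log2 deviation from its own strain's mean was 0.0968, 0.0822 and 0.0744 in R256C replicates 1, 2 and 3, against 0.161, 0.219 and 0.0912 in WT replicates 1, 2 and 3. For RPO21, MED6 and MED4, WT replicate 2 lay between the R256C libraries and the other WT libraries. Without it, 7 of the 45 genes rose and 17 fell, while the share called over all genes was 58.9%. Without WT replicate 3, 2 rose and 6 fell (all genes 27.2%). Leaving out R256C replicate 2 gave 4 and 7 (all genes 28.3%), and leaving out R256C replicate 3 gave 3 and 7 (all genes 27.3%). The total called among the 45 genes thus moved in the same direction as the share over all genes. Library sizes were 8967232 to 11935735 reads in genes for R256C and 10750023 to 16905818 for WT, and the lowest count of any of the 45 genes in any library was 235 (MED11). Both strains had the expression of MATa cells: 5 MATa genes averaged 449 to 1632 CPM in R256C and 363 to 1498 CPM in WT, and 4 MATalpha genes 1.54 to 97.8 CPM in R256C and 0.671 to 90.3 CPM in WT, the highest of them being SAG1.

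The windows from 250 to 51 bases before the start codon are shown for the gene of the 45 that rose most, the 2 that fell most and the largest polymerase subunit, from the R64 genome (RefSeq). Capitals mark the letters TATAAA of the TATA box, GATGAG of the PAC motif or AAATTTT of the RRPE motif, on either strand. The PAC and RRPE motifs are known from ribosome assembly genes.
MED4 (Mediator middle module, higher), chrXV:658497-658696 (plus strand): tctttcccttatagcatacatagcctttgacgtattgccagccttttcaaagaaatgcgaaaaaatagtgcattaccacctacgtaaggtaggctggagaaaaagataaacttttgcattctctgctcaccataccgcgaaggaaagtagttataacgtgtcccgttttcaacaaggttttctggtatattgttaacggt
RPC10 (shared polymerase subunit, lower), chrVIII:386983-387182 (plus strand): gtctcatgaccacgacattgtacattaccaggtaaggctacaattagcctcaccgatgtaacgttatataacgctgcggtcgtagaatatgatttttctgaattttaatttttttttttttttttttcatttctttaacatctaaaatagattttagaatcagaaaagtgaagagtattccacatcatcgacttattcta
MED6 (Mediator head, lower), chrVIII:219935-220134 (minus strand): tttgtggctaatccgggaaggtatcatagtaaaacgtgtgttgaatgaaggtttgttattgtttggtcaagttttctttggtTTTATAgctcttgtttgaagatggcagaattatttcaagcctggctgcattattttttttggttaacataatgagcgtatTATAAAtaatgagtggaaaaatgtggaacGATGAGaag
RPO21 (largest polymerase subunit, lower), chrIV:210612-210811 (minus strand): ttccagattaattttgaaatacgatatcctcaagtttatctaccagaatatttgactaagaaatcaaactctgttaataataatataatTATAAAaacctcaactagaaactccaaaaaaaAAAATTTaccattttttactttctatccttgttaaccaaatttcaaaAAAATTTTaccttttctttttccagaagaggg
The windows of MED4 and RPC10 hold none of these motifs, and the window of MED6 runs into the coding sequence of FYV4, the gene read in the other direction. TATAAA was found on either strand in 17 of the 45 windows (37.8%) and in 37.9% of 5993 windows of all coding genes, GATGAG in 6 (13.3%; all genes 15.7%) and AAATTTT in 12 (26.7%; all genes 19.3%). AAATTTT was in 6 of 12 polymerase subunit windows, 2 of 8 general factor windows and 4 of 25 Mediator windows. It was in 2 of the 13 windows of genes that fell and 0 of the 4 of genes that rose. Also searched on both strands were TTACCCG, the Reb1 site, found in 6 windows (13.3%; all genes 6.99%), and ACGCGT, the MCB element of G1/S genes, found in 0 (all genes 2.7%). A match is a run of letters and was not tested for binding; the motifs were chosen after the expression values were known.

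The 2 largest polymerase subunits, which together form the catalytic cleft, fell. RPO21 (YDL140C, RPB1, chromosome IV, 205360 to 210561, 5202 bp of coding sequence), which carries the C-terminal domain, was at 781, 766 and 814 CPM in R256C and at 1451, 948 and 1297 CPM in WT (replicates 1, 2 and 3; CPM, the count scaled to library size with TMM factors). All R256C libraries lay below all WT libraries, with WT replicate 2 the nearest to them. The level was 0.639-fold that of WT (log2 fold change -0.65, SE 0.17, adjusted p = 0.0159). RPB2 (YOR151C, chromosome XV, 612997 to 616671, 3675 bp), the second-largest subunit, was at 289.5, 344 and 346 CPM in R256C and at 452, 409 and 470.0 CPM in WT. Its groups did not overlap either (log2 fold change -0.44, SE 0.11, adjusted p = 0.0154). The call of RPO21 was lost without R256C replicate 1 (adjusted p = 0.0616), 2 (0.0692) or 3 (0.0586), without WT replicate 3 (0.0626) and with an offset for coding length (log2 fold change -0.22, 0.211); over 15 alternatives its adjusted p ran from 2.74e-06 to 0.235. That of RPB2 was lost without R256C replicate 1 (0.0654) or WT replicate 3 (0.0702), with library totals alone (0.0652) and with the length offset (log2 fold change -0.17, 0.153; range 0.000349 to 0.19).

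Among the 5 subunits that polymerases I, II and III share, 2 fell and 3 did not pass. RPC10 (YHR143W-A, RPB12, chromosome VIII, 387233 to 387445), a small zinc-binding subunit, was at 68.0, 57.3 and 58.6 CPM in R256C and at 117, 86.2 and 102 CPM in WT. It had the largest fall of the 45 genes (0.603-fold, log2 fold change -0.73, SE 0.13, adjusted p = 0.00263). RPB8 (YOR224C, chromosome XV, 760825 to 761265) was at 132, 129 and 117 CPM in R256C and at 164, 209.7 and 178 CPM in WT (log2 fold change -0.55, SE 0.11, adjusted p = 0.0051). For both genes every R256C library lay below every WT library, and both were called in all 15 alternatives. RPO26 (RPB6) averaged 195 ± 0.973 CPM in R256C and 203 ± 48.3 CPM in WT (SD, n = 3 each). RPB5 averaged 165 ± 6.14 CPM in R256C and 168 ± 34.8 CPM in WT, and RPB10 73.1 ± 5.12 CPM in R256C and 66.8 ± 16.3 CPM in WT. In these 3 genes WT replicate 2 was the highest of the 6 libraries, and without it RPB10 was called higher (log2 fold change 0.34, adjusted p = 0.00785; range over the alternatives 0.00785 to 0.963).

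None of the other 5 polymerase subunits passed. RPB3 and RPB11, which pair in the platform on which the enzyme assembles, had log2 fold changes of -0.26 (SE 0.15, adjusted p = 0.2) and 0.30 (SE 0.14, adjusted p = 0.123). RPB11 was at 96.6, 95.2 and 91.2 CPM in R256C and at 65.2, 95.2 and 69.8 CPM in WT. WT replicate 2 matched the R256C libraries, and without it RPB11 was called higher (log2 fold change 0.48, adjusted p = 0.000223), as it was with library totals alone (0.0255) and with an offset for coding length (0.0447; range over the alternatives 0.000223 to 0.325). RPB4 and RPB7, the stalk that reaches the emerging RNA, stayed near zero at -0.08 (SE 0.09) and -0.06 (SE 0.10), as did RPB9, a subunit of transcription fidelity, at -0.05 (SE 0.12). Of the 12 polymerase subunits, 4 fell and 0 rose (33.3% called; background 42.7%). DESeq2 and limma-voom also called 0 higher and 4 lower, and at an unadjusted p under 0.05 there were 0 higher and 4 lower. Their median log2 fold change was -0.07 (all genes -0.01), and 0.03 with library totals alone (all genes 0.09).

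**Figure D2:**
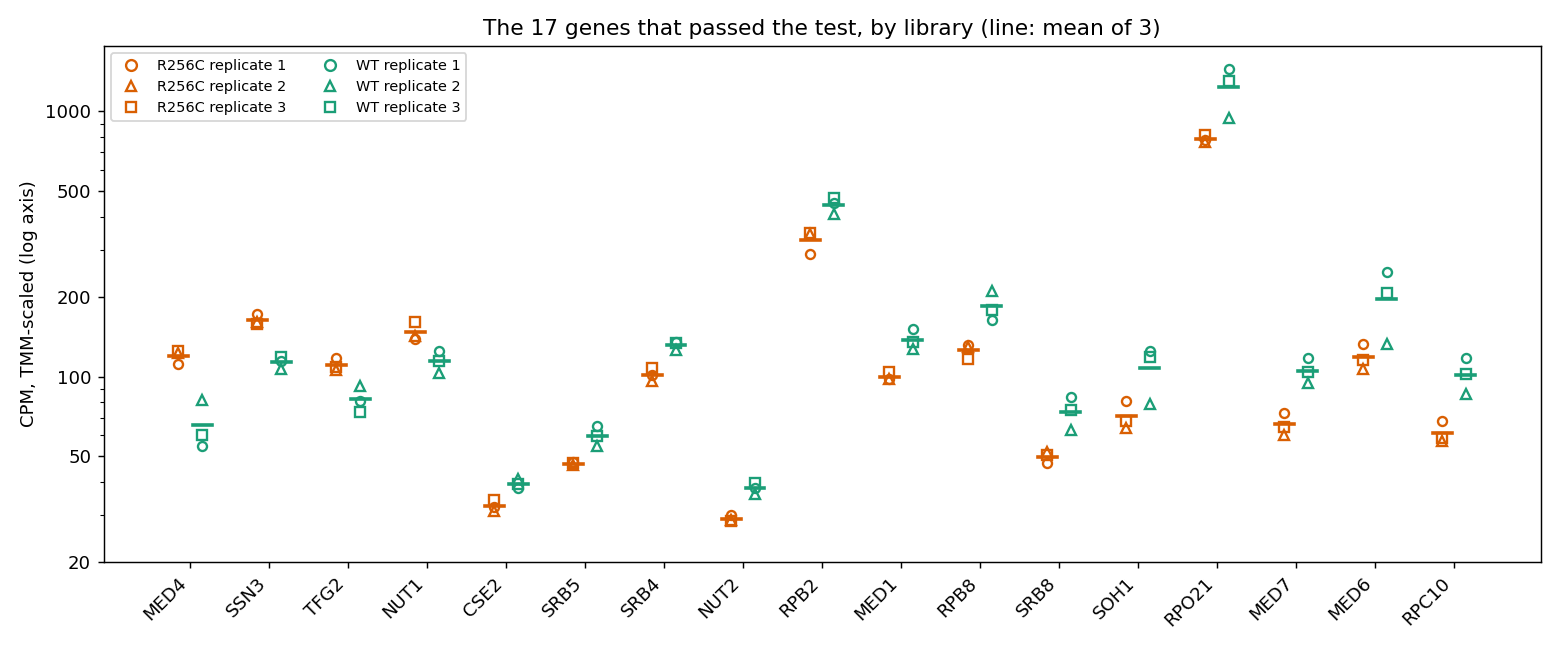
CPM (log axis) of the 17 genes that passed the test, R256C left of WT for each gene, with 1 marker shape per replicate and a line at the mean of 3 libraries. The 4 genes at the left are higher in R256C; in SOH1, WT replicate 2 (78.9 CPM) lies below R256C replicate 1 (81.2 CPM), so the groups overlap.

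The general factors had the fewest calls, although the libraries of the strains did not overlap in 62.5% of them (background 54.9%). Of 8 subunits 1 rose and 0 fell (12.5% called; background 42.7%), and the largest log2 fold change in either direction was 0.43. At an unadjusted p under 0.05, 1 was lower; limma-voom called 0 lower and DESeq2 1 (TFA2). TFG2 (YGR005C, chromosome VII, 504657 to 505859), the smaller essential TFIIF subunit, was at 117, 106 and 108 CPM in R256C and at 80.7, 92.1 and 73.8 CPM in WT. All R256C libraries were higher (1.34-fold, log2 fold change 0.43, SE 0.10, adjusted p = 0.0115); the call was lost without WT replicate 3 (0.0578; range 0.000141 to 0.0578). TFG1, its larger partner, was at 329.9, 299.9 and 302 CPM in R256C and at 278, 288 and 287 CPM in WT, which did not pass (log2 fold change 0.13, SE 0.09, adjusted p = 0.283) although the groups did not overlap.

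SPT15 (YER148W), the gene of TBP, was at 95.5, 98.1 and 94.7 CPM in R256C and at 90.4, 89.3 and 83.4 CPM in WT. The groups did not overlap, but the difference did not pass (log2 fold change 0.13, SE 0.08, adjusted p = 0.217). SUA7, the gene of TFIIB, averaged 119 ± 2.77 CPM in R256C and 120.4 ± 13.4 CPM in WT (SD, n = 3 each; log2 fold change -0.01, SE 0.10). The TFIIA genes TOA1 (0.01, SE 0.09) and TOA2 (-0.09, SE 0.13) were likewise close to zero on the log2 scale. Both TFIIE genes had R256C libraries below all WT libraries without passing: TFA1 had a log2 fold change of -0.11 (SE 0.08, adjusted p = 0.336). TFA2 was at 65.6, 67.5 and 67.2 CPM in R256C and at 86.2, 70.8 and 88.9 CPM in WT (log2 fold change -0.29, SE 0.11, adjusted p = 0.0513). TFA2 was just short of the threshold, and 5 of 15 alternatives called it lower, among them DESeq2 (0.0449) and the fit without WT replicate 2 (0.000983; range 0.000983 to 0.258).

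**Figure D3:**
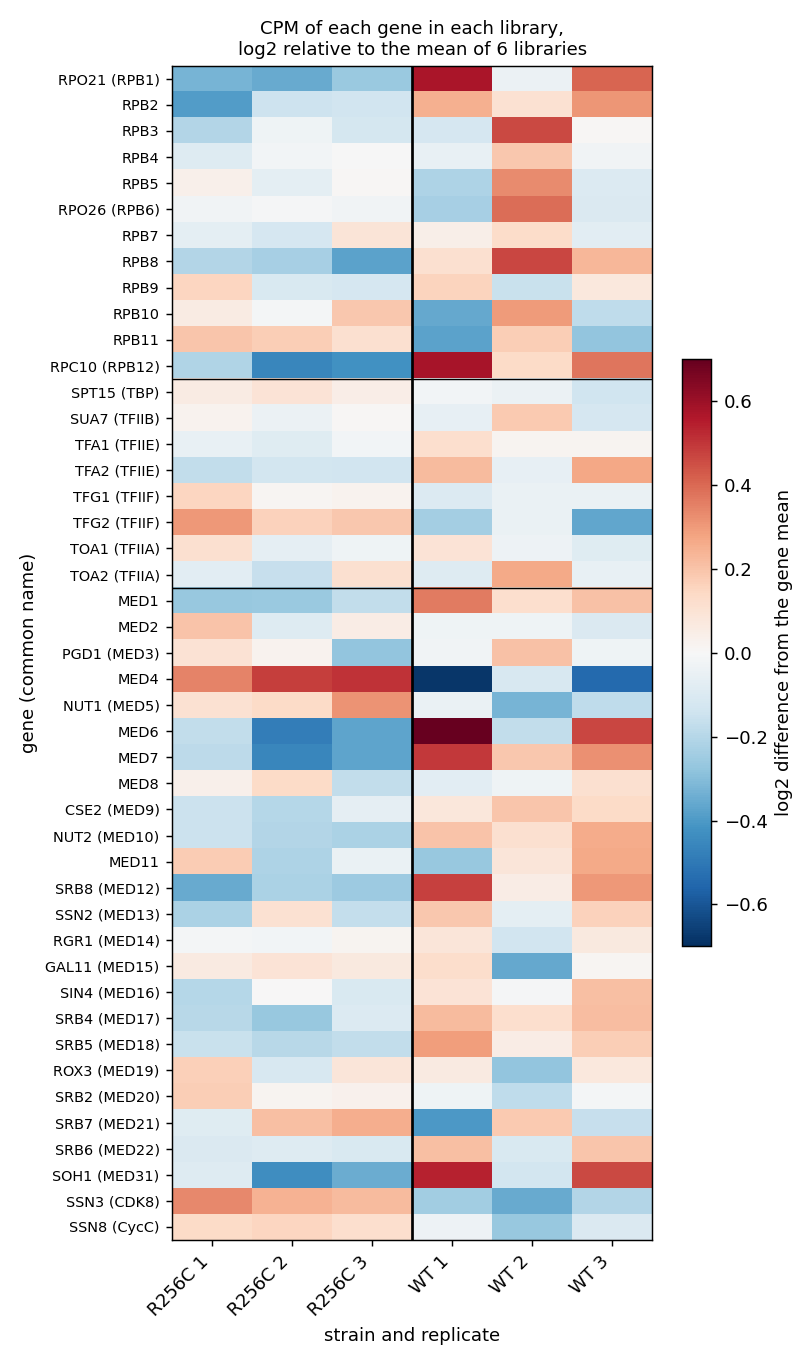
Log2 CPM of the 45 genes (rows, grouped as polymerase, general factors and Mediator) in the 6 libraries (columns, R256C left of WT), relative to each gene's mean over the libraries; red is above and blue below that mean. The general factor rows are pale, MED4 is red in R256C and blue in WT, and WT replicate 2 differs in colour from WT replicates 1 and 3 in RPO26, RPB5, RPB10, RPB11 and GAL11.

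Mediator held both the largest rise and most of the falls: of 25 subunits 3 rose and 9 fell (48%; background 42.7%), with a median log2 fold change of -0.10, or 0.01 with library totals alone. By that scaling the median of all genes was 0.09, and 4 Mediator subunits rose and 3 fell. The middle module, which sits between head and tail, had the most calls, with 1 rise and 5 falls among 8 subunits (75%; background 42.7%). MED4 (YOR174W, chromosome XV, 658747 to 659601) was at 112, 123 and 125 CPM in R256C and at 55.0, 81.3 and 60.4 CPM in WT. Every R256C library was above every WT library (1.83-fold, log2 fold change 0.87, SE 0.14, adjusted p = 0.00201), and MED4 was called in all 15 alternatives. MED7 (YOL135C, chromosome XV, 69376 to 70044), the organising subunit of the same module, fell, at 73.1, 60.4 and 64.3 CPM in R256C and 117, 94.8 and 104 CPM in WT. No R256C library reached the lowest WT library (0.627-fold, log2 fold change -0.67, SE 0.11, adjusted p = 0.00209). MED1 (YPR070W), another middle module subunit, was at 97.5, 97.9 and 104 CPM in R256C and at 151, 127 and 135 CPM in WT. Its groups did not overlap either (log2 fold change -0.46, SE 0.09, adjusted p = 0.00467), and both falls were called in all 15 alternatives.

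The other falls in the middle module were less stable. SOH1 (MED31), which packs against MED7, was at 81.2, 63.8 and 67.8 CPM in R256C and at 125, 78.9 and 119 CPM in WT, and was the single called gene of the 45 whose groups overlapped. It passed (log2 fold change -0.60, SE 0.18, adjusted p = 0.0253) but not without R256C replicate 2 (0.102) or 3 (0.0825), without WT replicate 3 (0.0873) or with library totals alone (0.081; range 1.04e-05 to 0.102). NUT2 (MED10), an essential subunit, was at 29.9, 28.9 and 28.5 CPM in R256C and at 38.1, 36.0 and 39.8 CPM in WT, with no overlap (log2 fold change -0.38, SE 0.10, adjusted p = 0.0136). It was lost without R256C replicate 2 (0.0517) or 3 (0.0616), without WT replicate 3 (0.0624) and with library totals (0.0744; range 0.00249 to 0.0744). CSE2 (YNR010W, MED9), the partner of MED4, was at 32.3, 31.2 and 34.2 CPM in R256C and at 37.9, 41.0 and 39.4 CPM in WT, again without overlap. It had the weakest call (log2 fold change -0.28, SE 0.10, adjusted p = 0.0456): 10 of 15 alternatives lost it, DESeq2 (0.0508), the replicate block (0.0832) and the removal of any single library but WT replicate 2 among them (0.0555 to 0.152; range 0.0431 to 0.171). ROX3 (MED19) and SRB7 (MED21) did not pass, with log2 fold changes of 0.09 (SE 0.12) and 0.24 (SE 0.17); SRB7 was called higher without WT replicate 2 (0.41, adjusted p = 0.0149; range 0.0149 to 0.62).

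In the head module, which contacts the polymerase, 3 of 7 subunits fell and 0 rose, also by DESeq2 and limma-voom; at an unadjusted p under 0.05, 0 were higher. The share called, 42.9%, was close to that of all genes (42.7%). MED6 (YHR058C, chromosome VIII, 218997 to 219884), a conserved essential subunit, was at 133, 107 and 116 CPM in R256C and at 248, 133 and 207 CPM in WT. The highest R256C value (132.7 CPM in replicate 1) was close to the lowest WT value (132.8 CPM in replicate 2). The fall (0.605-fold, log2 fold change -0.72, SE 0.21, adjusted p = 0.0219) was lost without R256C replicate 2 (0.0922) or 3 (0.0699), without WT replicate 3 (0.0671) and with library totals (0.0623; range 2.03e-06 to 0.0922). SRB4 (YER022W, MED17), the essential core of the head, was at 101, 96.2 and 108 CPM in R256C and at 135, 126 and 134 CPM in WT, a clear separation (log2 fold change -0.37, SE 0.09, adjusted p = 0.00902) lost with library totals (0.0659; range 0.000551 to 0.0659). SRB5 (YGR104C, MED18) was at 47.6, 46.3 and 47.1 CPM in R256C and at 64.9, 54.8 and 59.7 CPM in WT, without overlap. It fell by 0.35 on the log2 scale (SE 0.10, adjusted p = 0.0199), but was lost with library totals alone (0.122) and in 5 of the 6 fits that left out a library (0.053 to 0.0697; range over all alternatives 0.00133 to 0.122).

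SRB5 pairs with SRB2 (MED20) in the movable jaw of the head, and SRB2 did not pass (log2 fold change 0.15, SE 0.09, adjusted p = 0.223). MED8 (0.00, SE 0.11), MED11 (-0.06, SE 0.16) and SRB6 (MED22; -0.21, SE 0.10) did not pass on the log2 scale either; SRB6 was called lower without WT replicate 2 (-0.30, adjusted p = 0.00468; range 0.00468 to 0.52).

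The tail module binds activators, and 1 of its 5 subunits passed (20%; background 42.7%). NUT1 (YGL151W, MED5) was at 139, 142 and 161 CPM in R256C and at 125, 103 and 114 CPM in WT, all higher in R256C (1.29-fold, log2 fold change 0.37, SE 0.10, adjusted p = 0.021). It was lost without R256C replicate 3 (0.0891) or WT replicate 3 (0.0689; range 0.000861 to 0.0891). GAL11 (YOL051W, MED15), the main target of activators, was at 545, 557 and 547 CPM in R256C and at 567, 406 and 526 CPM in WT. The groups overlapped (log2 fold change 0.14, SE 0.14, adjusted p = 0.455), and with the length offset it was called higher (0.37, 0.0266; range 0.0266 to 0.95). MED2 (0.11, SE 0.10), PGD1 (MED3; -0.10, SE 0.12) and SIN4 (MED16; -0.20, SE 0.10) did not pass on the log2 scale, and SIN4 was called lower without WT replicate 2 (-0.25, adjusted p = 0.0309; range 0.0309 to 0.802). RGR1 (YLR071C, MED14), the scaffold that joins the modules, was at 263, 262 and 269 CPM in R256C and 281, 242 and 279 CPM in WT (log2 fold change -0.02, SE 0.10, adjusted p = 0.902). With the length offset it was called higher (0.21, adjusted p = 0.0486; range 0.0486 to 0.982).

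In the kinase module 1 of 4 subunits rose and 1 fell (50%; background 42.7%). SSN3 (YPL042C, chromosome XVI, 473040 to 474707), which encodes CDK8, the kinase that phosphorylates the polymerase and several activators, was at 172, 161 and 158 CPM in R256C and at 115, 106 and 118 CPM in WT. The groups were well separated (1.45-fold, log2 fold change 0.53, SE 0.09, adjusted p = 0.00157), and SSN3 was called in all 15 alternatives. SRB8 (YCR081W, MED12), which activates the kinase, was at 47.3, 51.8 and 50.6 CPM in R256C and at 84.1, 62.6 and 74.5 CPM in WT. It fell (log2 fold change -0.56, SE 0.12, adjusted p = 0.00664), a call lost with the length offset (-0.22, 0.0821; range 2.54e-05 to 0.122). SSN8 (YNL025C, cyclin C) was at 49.5, 50.1 and 49.0 CPM in R256C and at 44.1, 37.6 and 42.2 CPM in WT, without overlap but just short of the threshold (log2 fold change 0.26, SE 0.10, adjusted p = 0.0563). It was called without WT replicate 1 (0.0457) and in 3 other alternatives (range 0.0417 to 0.131). SSN2 (MED13), which tethers the module to Mediator, did not pass (-0.18, SE 0.12, adjusted p = 0.24) but was called lower without WT replicate 2 (-0.26, 0.0377; range 0.0377 to 0.635).

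A ratio of 2 genes within a library does not depend on how libraries are scaled, and 12 pairs of subunits that sit together were followed in this way, chosen with the values known and therefore without a test. Ratios are of CPM per kb of coding sequence. In 7 of the 12 pairs the R256C and WT ratios did not overlap. Single genes did not overlap in 54.9% of all genes tested, and no background was computed for pairs, so the count of pairs is a description only. The ratio of MED4 to CSE2 was 1.82, 2.08 and 1.92 in R256C and 0.763, 1.04 and 0.808 in WT, a 2.23-fold difference and the widest of the 12. That of MED7 to SRB7 was 1.60, 1.08 and 1.11 in R256C and 3.18, 1.72 and 2.39 in WT. RPB3 to RPB11 stood at 0.178, 0.205 and 0.200 in R256C and at 0.281, 0.288 and 0.286 in WT, and in this ratio WT replicate 2 was close to the other WT libraries. Ratios of TFG1 to TFG2 (1.53 ± 0.00854 in R256C, 1.90 ± 0.211 in WT), SRB5 to SRB2 (0.395 ± 0.0193 in R256C, 0.556 ± 0.0278 in WT) and SRB8 to SSN2 (0.679 ± 0.06 in R256C, 0.873 ± 0.0558 in WT) were lower in every R256C library (SD, n = 3 each). The ratio of SSN3 to SSN8 was higher in every R256C library (1.92 ± 0.083 in R256C, 1.60 ± 0.0712 in WT). The ratios RPO21 to RPB2, RPB4 to RPB7, TFA1 to TFA2, TOA1 to TOA2 and MED7 to SOH1 overlapped between the strains.

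**Figure D4:**
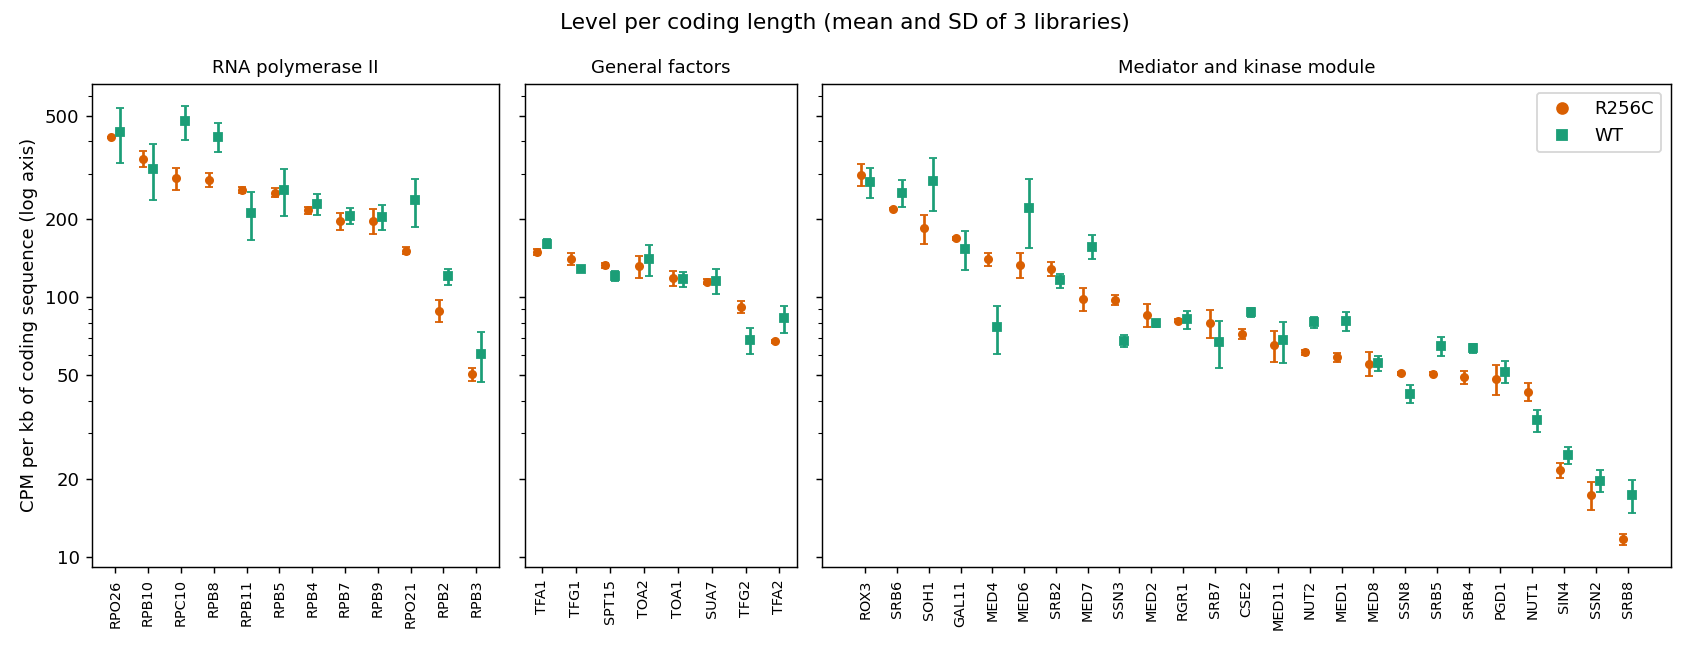
CPM per kb of coding sequence (log axis, mean and SD of 3 libraries) of the polymerase, general factor and Mediator genes, R256C left of WT and ordered by the R256C level. Polymerase subunits span 50.5 (RPB3) to 416 (RPO26) in R256C, general factors 67.6 (TFA2) to 149.9 (TFA1), and Mediator subunits 11.7 (SRB8) to 298 (ROX3).

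Levels per coding length differed widely between subunits of a complex. Among polymerase subunits the highest level exceeded the lowest 8.23-fold in R256C and 7.91-fold in WT, and among Mediator subunits 25.5-fold in R256C and 16.3-fold in WT. The 8 general factors were within 2.22-fold in R256C and 2.36-fold in WT. RPO26 was the highest polymerase gene in R256C at 416 ± 2.08 CPM per kb, against 434 ± 103 in WT, where RPC10 (478 ± 72.4), RPO26 and RPB8 (417 ± 53.3) were within their spread of each other. RPC10 and RPB8 were at 288 ± 27.4 and 285 ± 18.0 CPM per kb in R256C, again within their spread. RPB3 was the lowest in either strain, at 50.5 ± 3.08 CPM per kb in R256C and 60.4 ± 13.3 in WT. Its partner RPB11 was at 259.9 ± 7.69 in R256C and 211 ± 44.5 in WT.

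In Mediator the kinase module subunits SRB8 (11.7 ± 0.538 CPM per kb in R256C, 17.2 ± 2.51 in WT) and SSN2 (17.3 ± 2.19 in R256C, 19.7 ± 1.88 in WT) and the tail subunit SIN4 (21.5 ± 1.50 in R256C, 24.7 ± 1.84 in WT) were the lowest. MED4 had rank 5 of 25 in R256C at 140.2 ± 8.26 CPM per kb and rank 13 in WT at 76.7 ± 16.3. Over the 45 genes the order of levels had a Spearman rho of 0.943 between the strains, and the WT level had a rho of -0.545 with coding length, across genes that share the same libraries. Part of each transcript outside the coding sequence is not in this length, which weighs most on short genes such as RPB10 and RPC10 (213 bp each). Rows with a neighbouring systematic name but no entry in the annotation used here existed for 15 of the 45 genes, RPB3 and PGD1 among them; whether they overlap these genes, and so take reads from them, was not tested.

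**Figure D5:**
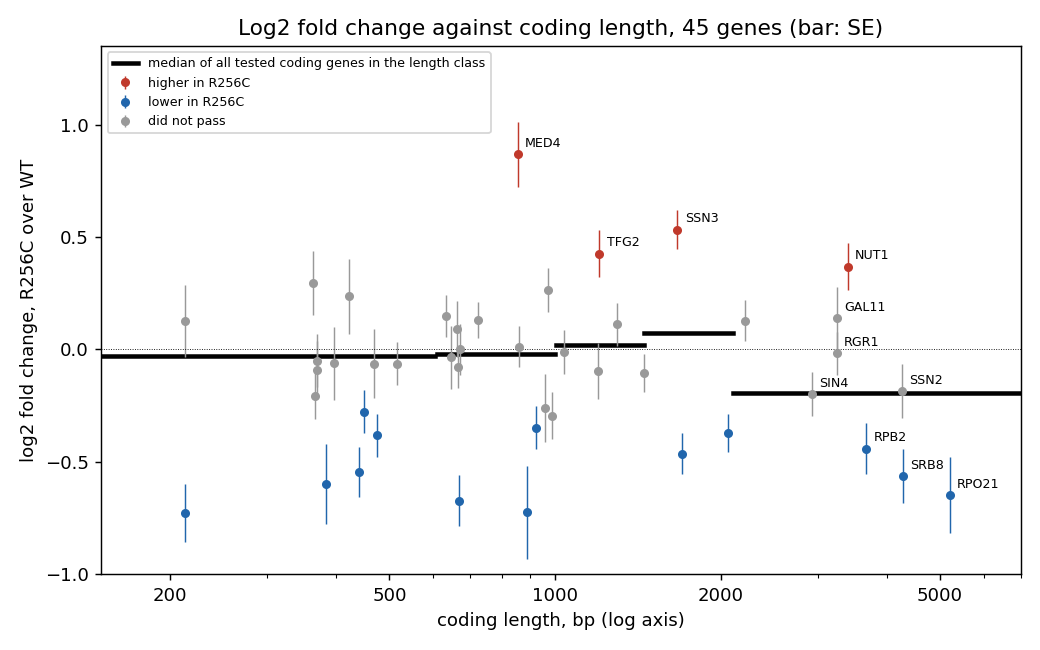
Log2 fold change (R256C over WT, bar: SE) of the 45 genes against coding length (log axis), with black lines at the median of all tested coding genes in 5 length classes. The longest class (2106 to 14733 bp) has a median of -0.19. RPO21, RPB2, SRB8 and, narrowly, SIN4 lie below it. NUT1, GAL11, TFG1, RGR1 and, narrowly, SSN2 lie above it.

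Coding length moved with the fold changes over all genes. Genes were split by length into 5 classes with about equal numbers of genes. In the longest class (2106 to 14733 bp) 451 of 1161 genes fell and 140 rose (median log2 fold change -0.19). In the class of 1452 to 2103 bp 219 of 1157 fell and 332 rose (median 0.07). Of the 9 genes of the machinery in the longest class, RPO21, RPB2 and SRB8 fell and NUT1 rose, with a median of -0.18. With an offset that removed the length trend from each library, the 3 falls were lost as given above, while the other 14 calls were kept. Among those kept were RPC10, RPB8, MED1, MED4, MED7 and SSN3, of 213 to 1701 bp, and NUT1, of 3399 bp. With the offset 7 of the 45 genes rose and 11 fell, and over all genes with a coding length 45% were called, 1359 higher and 1255 lower. Within the 45 genes the fold change had a Spearman rho of -0.009 with length, against -0.107 over 5805 genes. The part of length in these results was not tested further.

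Flanking genes often moved with a called gene, at about the rate seen elsewhere. Of the 34 genes next to the 17 called genes, 13 were called in the same direction (38.2%), against 32.9% of 4899 neighbours of all called coding genes. Of 7 called genes with a divergent upstream neighbour, 4 had one called in the same direction, against 33.6% over all called genes: MED1 with SPE3 (log2 fold change -0.81), MED6 with FYV4 (-0.53), MED7 with HRT1 (-0.50) and SOH1 with SCS3 (-0.38). MED4 rose beside its downstream neighbour ALE1 (0.53). Called in the opposite direction were 2 of the 34 neighbours. NUT1 rose while its downstream neighbour INO80, the ATPase of a chromatin remodelling complex, fell (-0.74). SRB8 fell while its upstream neighbour PTC6 rose (0.88).

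Other genes of polymerase II transcription, and BRF1 of polymerase III transcription, were followed in lists of 89 genes in all. Of these, 9 rose and 26 fell (39.3%, background 42.7%), with a median log2 fold change of -0.09. Of 4 genes that act on TBP 1 rose and 1 fell (50% called, background 42.7%). MOT1, the ATPase that strips TBP from DNA, fell to 110.0 ± 3.38 CPM in R256C, against 343 ± 34.4 CPM in WT (SD, n = 3 each). Its log2 fold change was -1.64 (SE 0.10, adjusted p = 2.61e-05). BRF1, the TBP partner at polymerase III promoters, rose to 103 ± 2.89 CPM in R256C, against 47.6 ± 9.04 CPM in WT (1.12, SE 0.13, adjusted p = 0.000408). Both calls held in all 15 alternatives. With the length offset the log2 fold change of MOT1 was -1.19 and that of BRF1 1.09.

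TFIIH, the factor that opens the promoter, had 1 rise (SSL1, log2 fold change 0.53) and 1 fall (TFB2, -0.29) among 10 genes (20% called; background 42.7%), and the call of TFB2 was lost in 8 of 15 alternatives, including each fit without a library other than WT replicate 2 (adjusted p 0.0564 to 0.154; range 0.0291 to 0.163). TFIID, the TBP-containing factor, had 1 rise and 3 falls among 14 genes (28.6% called): TAF12 rose (0.82), and TAF5 (-0.49) and TAF2 (-0.53) were among those that fell. SAGA, a coactivator that shares several TAFs with TFIID, had 3 rises and 5 falls among 14 genes listed for it (57.1% called; background 42.7%), with SPT20 higher (0.59) and ADA2 (-1.07) and SPT7 (-0.48) lower. Of 13 elongation factor genes 4 fell and 0 rose, and the share called was 30.8%, below the background of 42.7%. DESeq2 called 5 lower and limma-voom 4, both called 0 higher, and at an unadjusted p under 0.05 there were 6 lower and 0 higher. Those that fell included the FACT subunit SPT16 (-0.73), SPN1 (-0.65) and SPT5 (-0.48). With the length offset SPT5 was at -0.26 (adjusted p = 0.0331), and with the replicate block added its call was lost (0.0572; range 3.37e-05 to 0.0572). The length offset ended the calls of TAF2 (-0.19, adjusted p = 0.0691; range 7.73e-06 to 0.102) and SPT7 (-0.17, 0.114; range 0.000124 to 0.136).

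Of 9 genes for kinases, phosphatases and an isomerase of the C-terminal domain, 1 rose and 2 fell (33.3% called; background 42.7%): CTK1 (log2 fold change 0.58), and SGV1 (-0.49) with its cyclin BUR2 (-0.36). CTK1 was lost without R256C replicate 1 (adjusted p = 0.0853) or 3 (0.0515) or WT replicate 3 (0.0626; range 0.00198 to 0.0853), and BUR2 without R256C replicate 1 (0.071) or 3 (0.0736), WT replicate 3 (0.0554) or with library totals (0.107; range 0.0027 to 0.107). Of 7 genes for assembly and nuclear import of polymerases 4 fell and 0 rose (57.1% called; background 42.7%, and 21.4% lower), also by DESeq2 and limma-voom, and at an unadjusted p under 0.05 edgeR had 4 lower and 0 higher. RBA50 (-0.57), RTP1 (-0.66) and BUD27 (-0.80) had the smallest p. RTP1 was lost without R256C replicate 2 (0.051; range 5.71e-06 to 0.051), and BUD27 without R256C replicate 2 (0.0697) or 3 (0.0563) or WT replicate 3 (0.0519; range 3.75e-06 to 0.0697). Of 15 genes of termination and 3′ processing 2 rose and 6 fell (53.3% called; background 42.7%), among them CFT2 (-0.61), REF2 (-0.60) and CFT1 (-0.53) with falls. The call of CFT1 was lost with the length offset (-0.20, 0.0803; range 1.12e-05 to 0.107). Of 3 capping enzyme genes 0 were called by edgeR, DESeq2 or limma-voom, and 0 had an unadjusted p under 0.05.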

How the data were processed

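RNA of 3 R256C and 3 WT cultures was sequenced from poly(A)-selected, stranded libraries, per the labels' protocols. The deposited table holds raw counts of reads per gene; the submitters' processing notes name TopHat, HTSeq, DESeq and the build R64, while their versions, roles and strand setting were not given in the sources used here. Of 7131 rows, 7126 are genes; the 5 summary rows stayed out of library sizes and tests, and reads placed at several loci were 55.4 to 57.2% of all entries in R256C and 53.1 to 57% in WT. Locus tags matched the R64 annotation for 6048 rows, including all 45 genes; their coordinates and coding lengths come from it. Columns left unused numbered 0. Every pair of libraries differed by more than sampling noise (a chi-square over its degrees of freedom of 7.03 to 237). The 6337 genes that filterByExpr kept were scaled by TMM (edgeR 4.0.16, R 4.3.3) and tested on all 6 libraries with genotype as the only term, with Benjamini-Hochberg adjustment and a threshold of 0.05. SE is the log2 fold change over the root of F. P-values rest on 3 cultures per strain, and R256C and WT groups come from the sample titles. On simulated data for this comparison (6337 genes, 200 changed), 45.5%, 88.1% and 97% of genes changed 1.5-fold, 2-fold and 4-fold were recovered, and 9 of 162 calls were unchanged genes. The genes, lists and pairs were chosen with earlier results of these data known; genes called, 9 fixed subunits, and up to 3 called genes per further list were named in full. Alternatives were DESeq2 1.42.0 and limma-voom (limma 3.58.1), DESeq2 size factors, library totals, no low-count filter or a minimum of 10 CPM in 3 libraries, 6 left-out libraries, the replicate number as a block, and an offset for coding length alone or with the block.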

Additional observations from a re-analysis of the deposited data

How the results depend on the processing

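Of the 17 genes called among the 45, 6 were called in all 15 alternatives (RPC10, RPB8, MED1, MED4, MED7 and SSN3) and 8 in all 6 fits that left out a library, those 6 with SRB4 and SRB8. Over 675 recomputed fold changes of the 45 genes, 609 kept their side of the threshold with no called value changing sign, 45 lost a call, 20 gained one, and 1 reversed with a call: RGR1 with the coding length offset (log2 fold change 0.21). The number of the 45 genes that rose was 7 with the length offset and 2 to 7 when a library was left out; the number that fell was 6 with library totals alone and 6 to 17 when a library was left out. Over all genes 876 to 1875 rose and 822 to 1884 fell without a library, and 886 fell with library totals. With the replicate number as a block 4 of the 45 rose and 12 fell, and 1217 and 1214 of all genes did; with the length offset added, 6 and 9 of the 45. Deviations of same-numbered R256C and WT libraries had correlations of -0.111, -0.068 and -0.069. With 3 libraries per strain these values cannot settle whether same-numbered cultures were handled together. At this depth and number of cultures the test on simulated data recovered 45.5% of genes changed 1.5-fold and 88.1% of those changed 2-fold. The simulation changed 200 of 6337 genes, while 2703 were called in the data, so the cut-off in p was stricter in the simulation. Changes of these sizes can be missed, but how often in the data was not measured.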
